A study of Mus musculus with 240 samples.

Results

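Immunoglobulin constant genes encode the part of an antibody chain that sets its class, and they were followed here in the brains of 8 inbred mouse strains. The 6 genes were Ighm (the heavy chain of IgM), Ighg1, Ighg2b and Ighg2c (heavy chains of IgG subclasses), Igkc (the constant part of the kappa light chain) and Jchain (the joining chain that links IgM and IgA into polymers). They were 6 of 55414 genes in the count table, picked by name with the strain and region values of these data known, so their levels between strains are a description with no test. The p-values given below for regions, and for how regions differ by strain, describe the fit and are not independent support, for the same reason. Ighg2c had counts in B6, NOD, WSB and PWK and almost none in NZO, AJ, S129 and CAST, and it was highest in the prelimbic cortex. Ighm had counts in every library, with prelimbic means from 5.76 CPM in AJ to 31.6 CPM in NOD.

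An antibody has 2 heavy and 2 light chains, and each chain joins a variable segment, which binds the antigen, to a constant region. B cells first make IgM and IgD, and class switching then replaces the mu constant region by a gamma, alpha or epsilon one. Plasma cells secrete antibody at high rates, and healthy brain tissue holds few B lineage cells, most of them in the meninges and choroid plexus. Inbred mouse strains differ at the heavy chain locus, and at the place where C57BL/6J carries Ighg2c some other strains carry an allelic form called Ighg2a.

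The strains were the founders of the Collaborative Cross, a mouse breeding panel: the wild-derived WSB/EiJ (WSB), PWK/PhJ (PWK) and CAST/EiJ (CAST), and the laboratory strains NZO/HILtJ (NZO), NOD/LtJ (NOD), 129S1/SvImJ (S129), A/J (AJ) and C57BL/6J (B6). Each gave 3 female and 3 male mice, labelled naive, and tissue was punched from the central amygdala (CeA), the prelimbic cortex (PrL) and the core of the nucleus accumbens (NAcc) of the same 48 mice. GEO's design text gives an age of 8 weeks and the study's methods 10 to 12 weeks. The B6 NAcc library of mouse 1 was left out as the study left it out, so B6 NAcc had 5 libraries and every other strain and region 6, 143 in all, prepared in 3 sequencing trays of 48. The total count per library ran from 14942820 to 33951616, and levels are given as counts scaled to that total (CPM). In whole tissue, fewer cells of a type and less RNA per cell cannot be told apart.

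The region labels were checked against marker lists. The summed level of 6 cortical glutamatergic genes ran from 1576 to 2719 CPM in PrL, from 59.97 to 2125 CPM in CeA and from 32.0 to 1203 CPM in NAcc. The summed level of 8 striatal genes ran from 698 to 8517 CPM in NAcc, from 184 to 2116 CPM in PrL and from 340 to 9360 CPM in CeA. A few PrL and NAcc libraries held markers of both regions. The PrL library of PWK mouse 40 had the 2116 CPM of striatal genes, B6 mouse 25 had 697, WSB mouse 3 had 564 and B6 mouse 33 had 487. The NAcc libraries of PWK mouse 48 and B6 mouse 33 had 1203 and 487 CPM of the cortical genes. Results that rest on these 6 libraries are also given without them. The next NAcc libraries by cortical genes, AJ mouse 5 (470 CPM) and B6 mouse 25 (264 CPM), were kept. CeA libraries varied most. Many lay within the NAcc range of striatal genes. The highest of them were AJ mouse 5 (9360 CPM), AJ mouse 29 (8560 CPM) and B6 mouse 33 (7456 CPM). Others lay within the PrL range of cortical genes. The highest of those were NOD mouse 7 (2125 CPM), NOD mouse 47 (1961 CPM) and WSB mouse 3 (1780 CPM). The summed level of 7 CeA markers overlapped with NAcc. Every CeA level and every contrast with CeA below includes all these libraries, and their part in it was not tested.

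The IgG heavy chain genes are close copies of each other, which matters for reads of 100 bases aligned with up to 3 mismatches. The coding sequence of the Ighg2c transcript that includes the membrane exons (Ighg2c-201, GENCODE M21, GRCm38, chromosome 12, minus strand) was cut into every window of 100 bases. Of the 1112 windows, 125 (11.2%) lay within 3 mismatches of some stretch of Ighg2b, and none lay that near to Ighg1 or Ighg3. The Ighg2b, Ighg1 and Ighg3 transcripts compared end at coding exon 4, while Ighg2c-201 also has coding exons 5 and 6. Windows in those last exons had no counterpart, so near copies of them could not be seen and 11.2% may be too low. The nearest pair of windows is shown because it is where reads of these 2 genes are hardest to separate, with the 1 differing base in capitals. Both stretches start in coding exon 3, at coding base 444 of Ighg2c and 447 of Ighg2b.
Ighg2c: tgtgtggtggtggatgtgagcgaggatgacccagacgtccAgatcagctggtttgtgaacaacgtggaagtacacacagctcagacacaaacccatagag
Ighg2b: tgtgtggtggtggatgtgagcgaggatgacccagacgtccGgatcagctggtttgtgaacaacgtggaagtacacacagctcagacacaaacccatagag
The hinge, the flexible stretch between the arms and the stem of the antibody, is a short exon of its own and is shown because it tells the subclasses apart. It had 63 coding bases in Ighg2c, 66 in Ighg2b and 39 in Ighg1.
Ighg2c hinge: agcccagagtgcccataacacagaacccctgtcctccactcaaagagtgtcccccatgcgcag
Ighg2b hinge: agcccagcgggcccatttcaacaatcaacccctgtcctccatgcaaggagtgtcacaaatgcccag
Ighg1 hinge: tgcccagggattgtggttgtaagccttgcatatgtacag
These are sequences of the C57BL/6J reference. A strain whose own allele differs by more than 3 bases per read would lose reads in this counting, and the part of such loss in the strain differences was not tested.

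Ighg2c, the IgG2c heavy chain, separated the strains completely in PrL. Counts in PrL ran from 187 to 272 with a median of 212.5 in NOD, from 27 to 206 with a median of 135 in B6, from 58 to 119 with a median of 80 in PWK and from 50 to 136 with a median of 74 in WSB. In NZO, AJ, S129 and CAST the 24 PrL libraries had 0 to 4 counts, 9 of them 0 and 23 of them at most 3. The lowest of the 24 libraries of the first 4 strains, with 27 counts, thus lay well above the highest of the other 24. Means in PrL were 9.90 ± 1.36 CPM in NOD, 4.06 ± 2.20 in B6, 3.74 ± 0.518 in PWK and 3.33 ± 1.37 in WSB (SD, n = 6 each). Every NOD library was above every B6 library, while B6, PWK and WSB overlapped and their order is within the spread. NZO, S129 and CAST had at most 3 counts in every PrL library. Against a floor of 3 counts in the shallowest of those libraries, the NOD mean was at least 49.3-fold higher, B6 at least 20.2-fold, PWK at least 18.6-fold and WSB at least 16.6-fold. The 2 lowest B6 libraries, mice 25 and 33 with 33 and 27 counts, were those with the raised striatal markers, and the other 4 had 132 to 206.

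**Figure D1:**
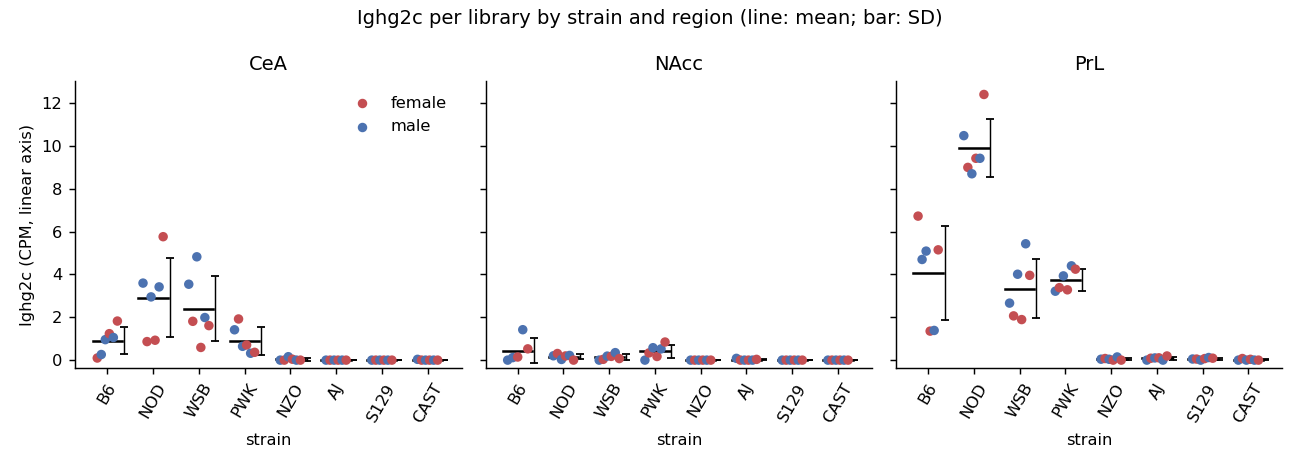
Ighg2c in CPM on a linear axis for each library (point, coloured by sex), by strain and by region, with the mean (line) and SD (bar) of each strain. NOD, B6, PWK and WSB run from 1.35 to 12.4 CPM in PrL, the other 4 strains reach at most 0.193 CPM in any region.

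The same 4 strains carried the Ighg2c counts in the other regions, at lower levels. In CeA the counts ran from 20 to 181 with a median of 79.5 in NOD, from 13 to 113 with a median of 44.5 in WSB, from 7 to 45 with a median of 18.5 in PWK and from 3 to 39 with a median of 25 in B6. In the other 4 strains 21 of 24 CeA libraries had 0 counts and the highest, from NZO mouse 18, had 4. The CeA libraries with the most counts, NOD mouse 47 (181) and WSB mouse 19 (113), had 1961 and 1620 CPM of the cortical genes. B6 mouse 1, with 3 counts, had 111 CPM, while S129 mouse 6 had 1732 CPM and 0 counts. The part of cortical tissue in the CeA counts was not tested. In NAcc the highest count was 30, in B6 mouse 33, and the 4 strains had medians of 4 (B6), 4 (NOD), 3 (WSB) and 11 (PWK). NAcc libraries of NZO, AJ, S129 and CAST had 0 counts in 22 of 24 and at most 2. The 2 highest NAcc libraries, B6 mouse 33 with 30 counts and PWK mouse 48 with 22, were the ones with the most cortical markers, and the part of cortical tissue in them was not tested. PWK mice 24 and 40 came next, with 15 and 13 counts and 98.8 and 81.4 CPM of cortical genes. Their striatal sums, 698 and 903 CPM, were the lowest of the NAcc libraries kept. These NAcc libraries were not among the 6 with mixed markers.

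Ighg2c was higher in PrL than in either other region, and higher in CeA than in NAcc. Its mean was 2.66 CPM in PrL, 0.894 in CeA and 0.139 in NAcc over all strains. The log2 fold change of PrL over NAcc was 4.08 (SE 0.288, adjusted p = 1.82e-27, edgeR quasi-likelihood test), that of PrL over CeA 1.64 (SE 0.234, adjusted p = 4.56e-10) and that of NAcc over CeA -2.44 (SE 0.292, adjusted p = 9.35e-13). Of the 5 members tested, 4 were higher in PrL than in NAcc and 4 higher in PrL than in CeA, none was lower, and NAcc against CeA gave 1 higher and 2 lower. In the background, 76.2% of 20451 genes tested differed between PrL and NAcc (34.1% higher in PrL, 42.1% lower), 65.9% between PrL and CeA (30.7% higher in PrL, 35.2% lower) and 59% between NAcc and CeA (31.7% higher in NAcc, 27.3% lower), and nothing is read from the members' calls, since the region values were known when they were chosen. The members' median log2 fold change was 1.97 for PrL over NAcc and 1.05 for PrL over CeA, beside -0.05 and -0.02 over all genes tested. In the same mice, PrL was above NAcc in 22 of 23 mice of B6, NOD, WSB and PWK, PrL above CeA in 22 of 24 and CeA above NAcc in 20 of 23.

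Within single strains, a fit added after seeing the data, the log2 fold change of PrL over NAcc was 6.07 in NOD (SE 0.62, adjusted p = 2.46e-14), 4.77 in WSB (SE 0.623, adjusted p = 3.03e-10), 3.26 in PWK (SE 0.538, adjusted p = 2.47e-07) and 3.24 in B6 (SE 0.584, adjusted p = 2.01e-06; edgeR quasi-likelihood test, 46.2% of tests over all genes and strains called). Whether these folds differ between strains did not pass the threshold for Ighg2c (adjusted p = 0.0686, edgeR quasi-likelihood test, 18.5% of genes called). It passed with limma-voom and with both runs of a library summed. Over all 3 regions, where 28.7% of genes were called, the strain by region term passed for Ighg2c (adjusted p = 0.00754) and Ighm (adjusted p = 1.84e-12, edgeR quasi-likelihood test). Without the 6 libraries with mixed markers, the value of Ighg2c PrL minus NAcc, B6 was 4.93 (SE 0.657), that of Ighg2c NAcc minus CeA, B6 was -2.27 and that of Ighg2c NAcc minus CeA, PWK was -1.60. The NAcc deficits against CeA in B6 and PWK passed the test only without those libraries, being -1.002 (adjusted p = 0.241) and -1.10 (adjusted p = 0.151, edgeR quasi-likelihood test) with them. Those libraries include the NAcc libraries with the most Ighg2c, B6 mouse 33 (30 counts) and PWK mouse 48 (22 counts). PrL over CeA, where 30.5% of such tests were called, was called in B6 (2.24, SE 0.5, adjusted p = 0.000216), PWK (2.16, SE 0.499, adjusted p = 0.000332) and NOD (1.81, SE 0.467, adjusted p = 0.00135). In WSB, where CeA had 13 to 113 counts and PrL 50 to 136, it was 0.58 (SE 0.466, adjusted p = 0.372). PrL over CeA in AJ (adjusted p = 0.0397) and PrL over NAcc in S129 (adjusted p = 0.0496, edgeR quasi-likelihood test) also fell just under the threshold. Both rest on PrL libraries of at most 4 counts against libraries at 0, so no fold is given for them here.

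Ighg2b, the IgG2b heavy chain, was seen mainly in WSB. WSB had 42 to 111 counts in PrL (median 63.5) and 11 to 97 in CeA (median 36), and PWK had 11 to 23 in PrL (median 19) and 1 to 13 in CeA (median 2). All PrL libraries of the other 6 strains had at most 2 counts, so in PrL neither WSB nor PWK overlapped with any of them, and WSB did not overlap with PWK. The WSB mean in PrL was 2.79 ± 1.07 CPM and the PWK mean 0.821 ± 0.211 CPM (SD, n = 6). Over the same floor of 3 counts in 6 strains, WSB was at least 13.9-fold higher and PWK at least 4.09-fold.

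Ighg2b made up different shares of the IgG2 counts in WSB and PWK. In WSB it made up 45.6% of the summed Ighg2b and Ighg2c counts in PrL (95% Wilson interval 42.3 to 48.9%, library range 37.1 to 55.6%) and 44.9% in CeA (41.1 to 48.7%, library range 35.8 to 47.1%). In PWK the share was 17.8% in PrL (15.0 to 21.1%, library range 14.4 to 21.9%) and 18.5% in CeA (13.3 to 25.0%, library range 4.76 to 25% over the 5 libraries with 10 or more counts). In PrL of NOD it was 0.226%, with 3 Ighg2b beside 1322 Ighg2c counts, and in PrL of B6 0.296%, with 2 beside 674. The intervals cover counting error only. The library ranges of WSB and PWK did not overlap in PrL. How much of this share comes from reads of one gene placed on the other was not tested.

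**Figure D2:**
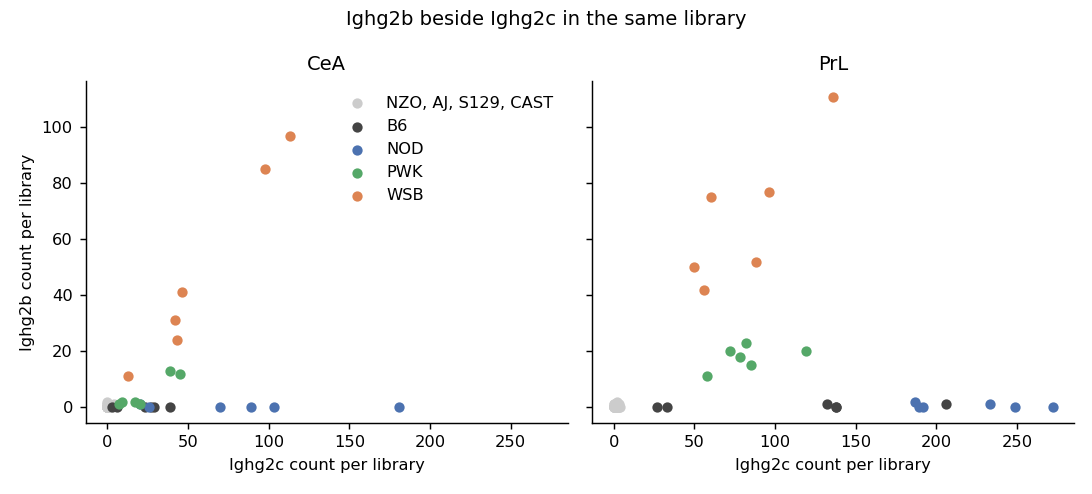
Count of Ighg2b against the count of Ighg2c in the same library (point, coloured by strain), in CeA and in PrL. WSB libraries lie on a line where both genes have similar counts, PWK libraries on a flatter one, and NOD and B6 libraries along the Ighg2c axis with at most 2 Ighg2b counts.

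Ighg2b followed Ighg2c between regions. The log2 fold change of PrL over NAcc was 3.75 (SE 0.351, adjusted p = 2.5e-18), of PrL over CeA 1.05 (SE 0.266, adjusted p = 0.000296) and of NAcc over CeA -2.70 (SE 0.364, adjusted p = 1.77e-10, edgeR quasi-likelihood test). These rest on WSB and PWK, which gave 407 and 107 counts in PrL and 289 and 31 in CeA, against at most 3 from any other strain in a region. The PrL excess over CeA was called within tray 1 alone and not within tray 2 (0.71, adjusted p = 0.155) or tray 3 (1.42, adjusted p = 0.0735). Within WSB, PrL over NAcc was 4.73 (SE 0.562, adjusted p = 1.8e-11) and PrL over CeA 0.62 (SE 0.43, adjusted p = 0.296). Within PWK, PrL over NAcc was 3.62 (SE 0.611, adjusted p = 5.33e-07) and PrL over CeA 2.09 (SE 0.526, adjusted p = 0.00109), and NAcc over CeA was -1.53 (SE 0.683, adjusted p = 0.0999, edgeR quasi-likelihood test). Without the 6 libraries with mixed markers, Ighg2b NAcc minus CeA, PWK was -4.12 (SE 0.894) and past the threshold, and Ighg2b PrL minus NAcc, PWK was 6.35 (SE 0.799).

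Ighg1, the IgG1 heavy chain, had 118 counts in all and did not reach the mean of 0.1 CPM required for a test. It was above 3 counts in 11 of 143 libraries, 4 of them from WSB (CeA of mice 19 and 35, PrL of mice 3 and 43). WSB had 1 to 7 counts in all 6 PrL libraries and 0 in all 6 NAcc libraries. The 4 highest were 17 counts in the CeA of NOD mouse 7, 17 in the NAcc of CAST mouse 28, 13 in the CeA of PWK mouse 32 and 10 in the NAcc of B6 mouse 33. The other libraries of those 4 groups had at most 2 counts. NZO had no Ighg1 count in any of its 18 libraries, which allows up to 3 counts per library.

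Ighm, the mu heavy chain, was by far the most abundant member, with 86 to 1545 counts in each of the 143 libraries. In PrL the counts ran from 397 to 1190 with a median of 635 in NOD, from 300 to 1545 with a median of 484.5 in PWK, from 262 to 1021 with a median of 591.5 in WSB and from 236 to 865 with a median of 787.5 in B6. They ran from 156 to 307 with a median of 220 in S129, from 123 to 265 with a median of 253 in NZO, from 100 to 223 with a median of 185.5 in CAST and from 117 to 162 with a median of 125.5 in AJ. Of the 24 libraries of NOD, PWK, WSB and B6, 22 lay above the highest library of the other strains, S129 mouse 46 with 13.75 CPM, and the 2 that did not were B6 mouse 25 (9.68 CPM) and WSB mouse 11 (9.66 CPM). Means in PrL fell in the order NOD (31.6 ± 12.6 CPM), PWK (28.0 ± 15.7), WSB (23.9 ± 11.1), B6 (23.7 ± 9.04), S129 (10.2 ± 2.504), NZO (9.88 ± 1.22), CAST (7.36 ± 1.16) and AJ (5.76 ± 0.704, SD, n = 6 each). The libraries of neighbouring strains in this order overlapped.

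**Figure D3:**
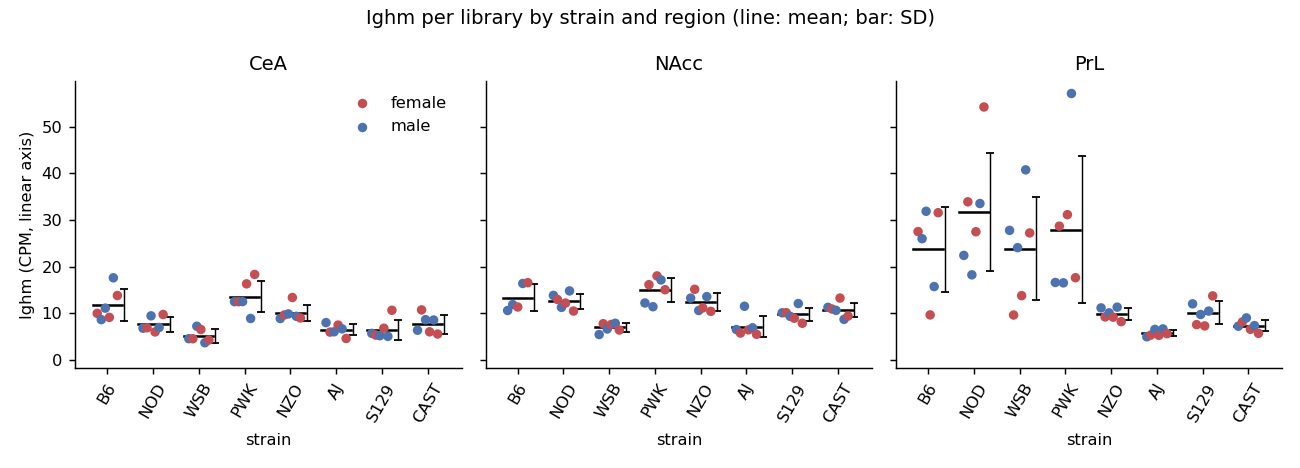
Ighm in CPM on a linear axis for each library (point, coloured by sex), by strain and by region, with the mean (line) and SD (bar) of each strain. NOD, PWK, WSB and B6 spread from 9.66 to 57.1 CPM in PrL, while in NAcc and CeA the highest library of any strain has 18.3 CPM.

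The strain order of Ighm was another one outside PrL. In NAcc the means were 15.0 ± 2.67 CPM in PWK, 13.4 ± 2.89 in B6 (n = 5), 12.6 ± 1.61 in NOD, 12.4 ± 1.91 in NZO, 10.7 ± 1.59 in CAST, 9.77 ± 1.42 in S129, 7.13 ± 2.22 in AJ and 6.98 ± 0.955 in WSB (SD, n = 6). Neighbours in this order overlapped. WSB, among the high strains in PrL, was the lowest strain in NAcc and also in CeA (5.16 ± 1.401 CPM), where PWK was the highest (13.5 ± 3.33 CPM).

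Ighm was higher in PrL over all strains, by a log2 fold change of 0.96 over CeA (SE 0.117, adjusted p = 1.13e-12) and 0.63 over NAcc (SE 0.117, adjusted p = 6.49e-07), and NAcc was above CeA by 0.33 (SE 0.116, adjusted p = 0.00977, edgeR quasi-likelihood test). The NAcc excess over CeA was not called within any single tray. Its mean was 17.5 CPM in PrL, 10.9 in NAcc and 8.60 in CeA. PrL was above NAcc in 21 of 23 mice of B6, NOD, WSB and PWK and in 4 of 24 mice of NZO, AJ, S129 and CAST.

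A strain by region term for PrL and NAcc was added after this pattern had been seen, so its p for Ighm (adjusted p = 7.11e-11, edgeR quasi-likelihood test, 18.5% of genes called) describes the fit and supports nothing beyond the values. The log2 fold change of PrL over NAcc was 1.88 in WSB (SE 0.23, adjusted p = 8.76e-12), 1.45 in NOD (SE 0.224, adjusted p = 2.62e-08), 0.99 in PWK (SE 0.221, adjusted p = 8.88e-05) and 0.84 in B6 (SE 0.234, adjusted p = 0.00162). In the other strains it was 0.17 in S129 (SE 0.226), -0.24 in AJ (SE 0.233), -0.24 in NZO (SE 0.225) and -0.47 in CAST (SE 0.227), none past the threshold. Over CeA, PrL was called in the same first 4 strains and also in S129 (0.70, SE 0.229, adjusted p = 0.0128). Without the 6 libraries with mixed markers the values were 1.28 for Ighm PrL minus NAcc, B6 and 0.71 for Ighm PrL minus NAcc, PWK, both still past the threshold, and the interaction held.

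**Figure D4:**
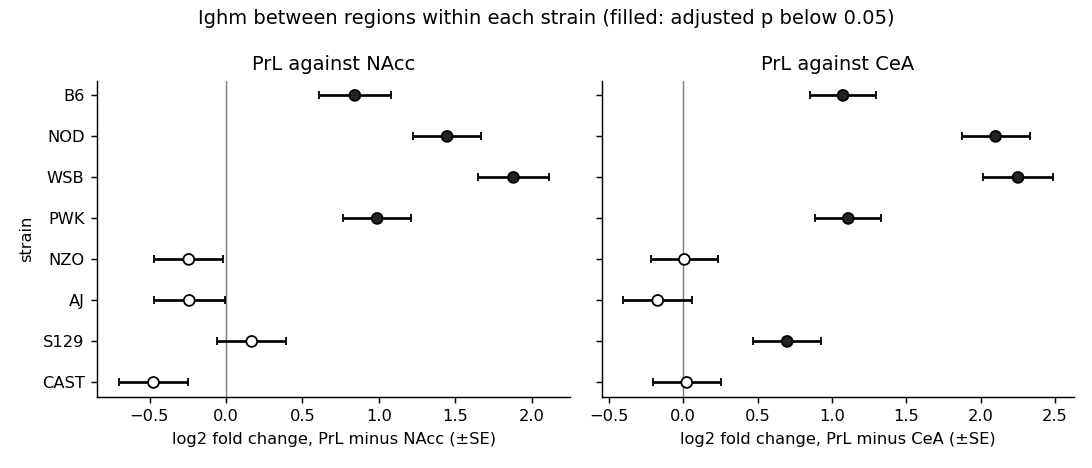
Log2 fold change of Ighm between PrL and NAcc (left) and between PrL and CeA (right) within each strain, with its SE (bar). Filled points had an adjusted p below 0.05 and all of them lie to the right of 0. WSB, NOD, PWK and B6 are filled in both panels.

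Ighg2c and Ighm did not rise by the same factor. Per 100 Ighm counts, PrL libraries had a median of 31.2 Ighg2c counts in NOD, 16.1 in B6, 15.6 in PWK and 14.1 in WSB, and NAcc libraries had 1.46, 1.28, 2.57 and 1.71. In CeA the medians were 46.6 in WSB, 40.0 in NOD, 7.28 in B6 and 4.73 in PWK.

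Igkc, the kappa constant gene that most mouse antibodies use, was low everywhere, higher in PrL over all strains together, and had another strain order than Ighg2c and Ighm. It had 0 to 39 counts per library and 654 in all, against 43124 of Ighm. Alone among the members, Igkc overlaps another gene on the same strand (Gm30211) in the GENCODE M21 gene models. Reads in such an overlap may be lost in counting, and the part of this in the Igkc counts was not tested. In PrL it had a median of 11 counts in B6, 9.5 in S129, 8.5 in PWK, 7.5 in WSB, 6 in NZO, 5 in AJ, 4 in NOD and 2.5 in CAST. NOD, highest in Ighg2c and Ighm, was thus second lowest in Igkc, with 0 to 6 counts in PrL, and the strains overlapped. Igkc was higher in PrL than in NAcc by a log2 fold change of 1.97 (SE 0.321, adjusted p = 2.13e-08) and than in CeA by 1.43 (SE 0.301, adjusted p = 1.4e-05), while NAcc and CeA differed by -0.54 (SE 0.349, adjusted p = 0.176, edgeR quasi-likelihood test). PrL was above NAcc in 17 of 23 mice of B6, NOD, WSB and PWK and in 20 of 24 of the other strains. Within strains, PrL over NAcc was called in B6, PWK, S129 and WSB, and PrL over CeA in PWK and WSB. In NOD these were 0.46 (SE 0.898, adjusted p = 0.709) and -0.59 (SE 0.817, adjusted p = 0.636, edgeR quasi-likelihood test). PrL was above NAcc in 2 of 6 NOD mice. The mean was 0.338 CPM in PrL, 0.135 in CeA and 0.0874 in NAcc.

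Jchain was present at a few counts in most libraries and passed no test of region or sex. It had 0 to 23 counts, with counts in 136 of 143 libraries, and means of 0.252 CPM in CeA, 0.236 in NAcc and 0.212 in PrL. No pair of regions passed the test, the log2 difference of PrL from NAcc being -0.08 (SE 0.169, adjusted p = 0.688, edgeR quasi-likelihood test). PWK had the lowest counts in CeA (0 to 2), in NAcc (1 to 5) and a median of 0.5 in PrL, where mouse 24 had 9.

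Compared per kilobase of exon (GENCODE M21 gene models, which are not the annotation used for counting), the mean level in PrL was 9.31 CPM per kb for Ighm, 2.00 for Ighg2c, 0.635 for Igkc, 0.173 for Ighg2b, 0.0842 for Jchain and 0.0138 for Ighg1. In NAcc it was 5.80 for Ighm, 0.164 for Igkc, 0.105 for Ighg2c and 0.0937 for Jchain. In PrL of NOD the per-kilobase level was 16.8 for Ighm, 7.46 for Ighg2c and 0.264 for Igkc.

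Variable and joining segments, the parts that a rearranged antibody transcript must carry, were scarce beside the heavy chain constant genes. All 183 Ighv rows together had 102 counts over the 143 libraries, and the 4 Ighj rows had 971, against 43124 for Ighm and 5332 for the IgG constant genes. The 160 Igkv rows had 570 counts, close to the 654 of Igkc. In PrL of NOD, 1322 Ighg2c and 4243 Ighm counts stood beside 5 Ighv and 21 Ighj counts, and 19 Igkc beside 31 Igkv counts. Ighj counts were higher in CeA (380) and NAcc (353) than in PrL (238), the reverse of Ighm and Ighg2c, in sums over libraries that were not tested. Variable segments from other strains can differ from the reference, and their loss in alignment was not tested. Whether read pairs that span a variable or joining segment and a constant gene were counted for either was not tested. These counts are thus no measure of the share of rearranged transcripts.

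The 3 variable segments with the most counts were all kappa segments. Igkv8-19 had 135 counts in 47 libraries, with none in WSB or PWK and the most in CAST (40) and NOD (31). Igkv6-20 had 124 counts in 50 libraries, none in WSB and 1 in PWK, and Igkv1-117 had 15.

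**Figure D5:**
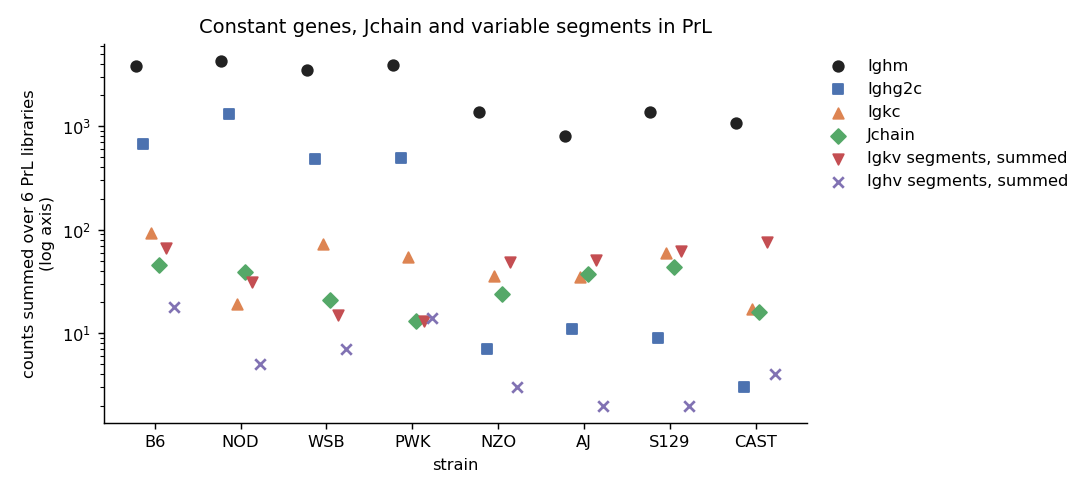
Counts summed over the 6 PrL libraries of each strain, on a log axis, for Ighm, Ighg2c, Igkc, Jchain and the summed variable segments of the kappa (Igkv) and heavy (Ighv) loci. Ighg2c falls from 1322 in NOD to 3 in CAST while Igkc stays between 17 and 92, and Ighv segments have at most 18 counts in every strain.

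Of the other 8 constant genes in the table, most had few counts. Ighd, the delta heavy chain that naive B cells make beside IgM, was the only one to reach 0.1 CPM, with 0 to 22 counts and means of 0.396 CPM in PrL, 0.371 in NAcc and 0.350 in CeA, and no pair of regions passed the test. Igha (the IgA heavy chain) had 136 counts, 91 of them in PrL, with the most in PrL of NOD (2 to 10 counts per library) and none in WSB. Ighg3 had 57 counts, none of them in NAcc and 37 in PrL. Iglc1 had 30, Iglc2 27, Iglc3 19, Ighe 2 and Iglc4 1.

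None of the 5 members tested passed the threshold between females and males in any region. Of all genes tested, 0.112% were called in CeA, 0.0831% in NAcc and 0.088% in PrL. Among the 5 members tested the smallest p was that of Igkc in CeA, with 0.179 CPM in males and 0.0904 in females (log2 difference 0.97, SE 0.482, adjusted p = 0.811, edgeR quasi-likelihood test). For Ighm the log2 difference of males from females was -0.09 in CeA (SE 0.104), 0.05 in NAcc (SE 0.075) and 0.18 in PrL (SE 0.149).

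Genes of the B lineage were mixed between PrL and NAcc, and the lists are too short for their shares to be read. Of 14 B cell genes, 6 reached 0.1 CPM, and against NAcc 1 was higher in PrL (Cd79a, part of the B cell receptor, log2 fold change 1.01, SE 0.212, adjusted p = 9.16e-06) and 1 lower (Cd37, a leukocyte tetraspanin that microglia also express, -0.25, SE 0.0624, adjusted p = 0.000139), beside the shares of all genes given above. The defining marker Ms4a1 had at most 5 counts in any library. Of 13 plasma cell genes, 10 were tested and 2 were higher in PrL (Sdc1, 0.64, and Prdm1, 1.12) and 4 lower, among them Txndc5 (-0.54) and Derl3 (-0.46). Against CeA, 1 B cell gene was higher in PrL and 0 lower, and 3 plasma cell genes were higher and 4 lower. Mzb1, a marker of antibody-secreting cells, had at most 6 counts. Among recombination and class switch genes, Rag2 had at most 2 counts, while Rag1 was higher in PrL by 2.21 (SE 0.204, adjusted p = 2.97e-19, edgeR quasi-likelihood test). Rag1 is 1 of 2 genes of that list that were tested. Each strain was also set against the other 7, where 28% of tests over all genes and strains were called in CeA, 25.8% in NAcc and 31.2% in PrL. In PrL none of the 6 B cell genes tested was called in NOD or PWK. Apart from Cd37, the means of these genes over all libraries ran from 0.102 CPM (Cd79b) to 0.225 CPM (Cr2), so a missing call shows little. In B6 Cr2, the complement receptor of B cells, was higher (0.512 CPM against 0.185, log2 difference 1.57, SE 0.284, adjusted p = 1.82e-05, edgeR quasi-likelihood test), as were Cd22 and Cd37, and in WSB Cd22 (-2.10) and Cd37 (-0.33) were lower. The summed level of the 14 B cell genes was 1.47 to 6.20 CPM in CeA, 1.65 to 8.55 in NAcc and 2.31 to 7.39 in PrL.

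Receptors and supply genes of antibodies were mixed. Of 10 Fc receptor and transport genes, 6 were tested, with 2 higher in PrL than in NAcc (Fcgr2b, the inhibitory Fc gamma receptor, 1.72, SE 0.124, and Fcgrt, the neonatal Fc receptor, 0.41, SE 0.0531) and 2 lower (Fcgr1, -0.33, and Fcer1g, -0.19). Of 8 survival factors and chemokines of antibody-secreting cells, 7 were tested, 4 higher (among them Cxcl12, 0.53, and Tnfsf13, 1.05) and 2 lower (Tnfsf13b, -0.49, and Cxcl13, -3.26). Of 10 T and NK cell genes, 4 were tested. Trbc2, a constant gene of the T cell receptor, was 18.8 CPM in PrL and 0.269 in NAcc (6.20, SE 0.19, adjusted p = 2.5e-62, edgeR quasi-likelihood test) and Trbc1 also rose (4.20, SE 0.332), while Cd4 (-5.02) and Trac (-0.82) were lower. Cd3d, Cd3e and Cd3g, which T cells need to carry a receptor, had at most 7 counts in any library.

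Markers of blood and covering tissue moved with region as well. All 5 red blood cell genes and all 10 meningeal fibroblast genes were higher in PrL than in NAcc, and the summed meningeal level was 17.1 to 202 CPM in PrL, 12.0 to 38.7 in NAcc and 19.7 to 197 in CeA. The 1 neutrophil gene tested, S100a9, was higher in PrL. Of 7 choroid plexus genes 1 was higher in PrL than in NAcc and 4 lower, all 7 were lower in PrL than in CeA (median log2 fold change -5.39), and 4 were lower in NAcc than in CeA. Their summed level was 12.4 to 8848 CPM in CeA, at most 95.9 in NAcc and at most 10.2 in PrL. Of 5 endothelial genes 2 were higher in PrL than in NAcc and 1 lower. Against CeA, 8 meningeal genes and all 5 red blood cell genes were higher in PrL. All 6 cortical glutamatergic genes were higher in PrL and all 8 striatal genes lower, and of 7 central amygdala genes 2 were higher and 5 lower. The part of these tissues in the region difference of the members was not tested. In PrL the median meningeal level by strain ran from 49.3 CPM in CAST to 126 CPM in NZO, both with at most 3 Ighg2c counts, with NOD at 76.0, B6 at 81.6, WSB at 75.2 and PWK at 98.2.

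The pattern across libraries most like that of the members was sought among all tested genes outside the immunoglobulin loci. With the mean of each strain and region removed, the summed level of the 6 members, which is mostly Ighm, had the highest Pearson's r over 143 libraries with Rapgef4 (0.63), Rell1 (0.59), Nfic (0.58), Ttc9 (0.57), Sema7a (0.56), Hr (0.55), H60b (0.54), Cdk16 (0.54), Rgs6 (0.53) and Marchf2 (0.53). Spearman's rho for these ran from 0.40 (H60b) to 0.69 (Rapgef4), and r without the 2 farthest libraries from 0.48 (H60b) to 0.62 (Rapgef4). For Ighg2c alone, a list added after seeing the data, the nearest genes were Tshz3 (0.58), Scube1 (0.58) and Tuba4a (0.57). Spearman's rho was lower, at 0.47 for Tshz3 and 0.44 for both Scube1 and Tuba4a. Tbr1, a transcription factor of cortical excitatory neurons, ranked 13 (r of 0.54). Only 64 of the 143 libraries were above 3 Ighg2c counts. Cd79a, with a mean of 0.168 CPM, had an r of -0.02 with Ighg2c and -0.16 with Ighm. The summed level of the 14 B cell genes, of which Cd37 was the most abundant, had an r of 0.16 with Ighg2c and 0.32 with Ighm. Libraries share depth, dissection and tray, and 3 of them come from each mouse, so these values are a description without a test.

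The 96 libraries that were sequenced again gave close mean CPM for Ighg2c and Ighm. Raw counts followed depth, with 13285 Ighm counts in the first run of tray 2 and 25007 in the second. Mean CPM in the first and second run of tray 2 was 0.180 and 0.166 for Igkc and 0.294 and 0.279 for Ighg2b. Jchain had 0.235 and 0.254 there. In tray 3 the values were 0.159 and 0.181 for Igkc, 0.171 and 0.202 for Ighg2b and 0.221 and 0.220 for Jchain. In trays 2 and 3 the mean of Ighg2c was 1.29 and 1.05 CPM in the first run and 1.27 and 1.05 in the second, and no library above 3 counts in one run had 0 in the other. For Ighm the means were 12.6 and 11.3 CPM in the first run and 12.7 and 11.2 in the second. The tallies that follow are raw counts, not scaled to depth, which was greater in the second run. For Igkc in tray 2, 16 libraries were above 3 counts in both runs, 18 in the first and 25 in the second, in which the summed count was 325 against 189. In tray 2, Ighg2b was above 3 counts in 7 libraries at first and in 15 on repeat. Of the libraries above 3 counts on repeat, 2 in tray 2 and 1 in tray 3 had 0 at first. Jchain had 1 such library in each tray, and Igkc had 2 in each tray and 1 in tray 2 that was above 3 in the first run and at 0 in the second.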

How the data were processed

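PolyA RNA from tissue punches of 3 brain regions of 48 mice was sequenced from stranded libraries in 3 trays of 48. Reads were checked and trimmed with FastQC and Trimmomatic and aligned with STAR 2.7.3a, allowing 3 mismatches per read of 100 bases, and the authors deposited raw read counts per gene (Ensembl release 105, mouse build GRCm39 per the labels). The strand setting of the counting is not given in the sources used here. The authors also deposited log2 CPM of 14785 genes made with edgeR 3.38.1 and limma 3.52.2, which hold 2 of the 6 members and were not used here.

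Trays 2 and 3 were sequenced again. The study's own choice of run was kept (first run for tray 2, second for tray 3) and the NAcc library of mouse 1 was left out, which gave 143 of 240 libraries. The total count ran from 14942820 to 33951616 per library, and a floor of 3 counts per library was used where a group was at 0. Intervals and floors cover counting error only, since reads carry no molecular identifiers. CPM was the count scaled to the library total. Groups came from the labels for strain, region and sex, and mice of a strain and region were the replicates.

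Tests used edgeR 4.0.16 in R 4.3.3 (quasi-likelihood test, TMM scaling, two-sided, Benjamini-Hochberg adjustment, threshold 0.05) on the 20451 of 55414 genes with a mean of at least 0.1 CPM, which 5 of the 6 members passed. Sex was tested within a region with strain and tray as terms, and regions over all libraries with strain, sex and tray as terms. The study's methods use limma-voom (limma 3.58.1 here), which was run as an alternative beside DESeq2 1.42.0, as were other scalings, filters, runs and left-out libraries. Contrasts within a strain and the strain by region interaction were added after the data were seen. The fitting scripts were tested on simulated data. The 3 regions of a mouse share its animal number, so the mouse is a true pairing, and deviations from group means correlated across genes with a median r of 0.0442 between CeA and NAcc, 0.036 between CeA and PrL and 0.0544 between NAcc and PrL.

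The members and the gene lists were chosen with earlier results of these data known. Named genes were the 6 members, every other immunoglobulin constant gene, up to 4 genes of each list that passed the test by mean CPM or else its most abundant gene, the defining markers of B, plasma and T cells, the 3 variable segments with the most counts and the 10 genes most like the summed members. Some list genes were named outside that rule after their values were seen. Sequences and exon lengths came from GENCODE M21 transcripts (GRCm38), which is not the build of the counts, so no coordinates are given. Some genes are not reported here.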

Additional observations from a re-analysis of the deposited data

Results flagged for a closer look

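In 97 groups of 5 or 6 libraries the highest and lowest library were compared with the rest by Dixon's gap ratio. Chance passes it in about 1 of 20 groups where values are normally distributed. That rate need not hold for skewed groups with a few counts per library, and it was not tested here. By this ratio 19 libraries stood apart, and all were the highest of their group. Apart from those of Ighm they had 4 to 23 counts, so their number is not set against that rate.

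For Ighm these were PrL of PWK mouse 40 (57.1 CPM, the others 16.5 to 31.2), CeA of NZO mouse 26 (13.4 CPM, the others 8.91 to 9.89), CeA of S129 mouse 46 (10.7 CPM, the others 5.08 to 6.83) and NAcc of AJ mouse 21 (11.5 CPM, the others 5.53 to 6.92). The PrL library of PWK mouse 40 also had the highest striatal marker sum in PrL, 2116 CPM.

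For Ighg1 they were CeA of NOD mouse 7 (0.593 CPM, 17 counts, the others 0), CeA of PWK mouse 32 (0.459 CPM, 13 counts), NAcc of CAST mouse 28 (0.781 CPM, 17 counts, the others 0), NAcc of B6 mouse 33 (0.473 CPM, 10 counts) and PrL of PWK mouse 40 (0.259 CPM, 7 counts). For Ighg2c and Ighg2b they were CeA of NZO mouse 18 (0.160 CPM, 4 counts) and NAcc of PWK mouse 48 (0.345 CPM, 9 counts), the latter with 1203 CPM of cortical markers.

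For Igkc they were NAcc of AJ mouse 45 (0.458 CPM, 13 counts), CeA of CAST mouse 36 (0.275 CPM, 7 counts), NAcc of PWK mouse 24 (0.193 CPM, 5 counts) and NAcc of CAST mouse 4 (0.187 CPM, 4 counts). For Jchain they were NAcc of S129 mouse 14 (0.953 CPM, 23 counts, the others 0.177 to 0.330 CPM), PrL of PWK mouse 24 (0.416 CPM), PrL of WSB mouse 27 (0.378 CPM) and PrL of CAST mouse 12 (0.261 CPM).

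The strain by region term of Ighm for PrL and NAcc had an adjusted p of 7.11e-11 (edgeR quasi-likelihood test), from a fit added after the pattern was seen.

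The NAcc library of B6 mouse 1, which the study left out, had 17 Ighg2c counts (1.03 CPM), above the B6 NAcc median of 4 and below the 30 of mouse 33. Its striatal marker sum was 285 CPM, under the lowest NAcc library kept (698 CPM), and its cortical marker sum was 83.1 CPM.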

How the results depend on the processing

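Region calls of the members kept their direction and side of the threshold under other scaling, filters, tools, runs and left-out libraries in 267 recomputed values, while 7 lost the call and 2 turned direction. All 7 lost calls came from single trays, which hold fewer libraries: Ighg2b NAcc minus CeA in tray 3 (-1.05), Ighg2b PrL minus CeA in trays 2 (0.71) and 3 (1.42), Igkc PrL minus CeA in tray 3 (1.08) and Ighm NAcc minus CeA in trays 1 to 3 (0.33, 0.43 and 0.24). For the region difference: genes called, NAcc minus CeA numbered 7448, 7708 and 6590 within trays 1, 2 and 3, against 12062 with all trays. The 2 that turned were Jchain NAcc minus CeA, never called, with both runs summed (0.00577) and within tray 1 (0.00566). A mean of at least 1 CPM left Ighg2b, Igkc and Jchain untested.

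The interaction of Ighm passed under every alternative run. With both runs summed and with limma-voom the test named Ighg2c PrL minus NAcc by strain, interaction also passed (-log10 p of 2.22 and 6.02), as did that of Ighg2b (2.25 and 11.3), and the cause was not tested. With the mouse as replicate block, Ighm PrL minus NAcc by strain, interaction had a -log10 p of 11.3, and no region or interaction call of a member changed. Within strains the block ended 1 call, Ighg2c PrL minus CeA, AJ (4.08, adjusted p = 0.104, edgeR quasi-likelihood test). Over all alternatives, 3 within-strain values lost and 7 gained a call. limma-voom ended Ighg2c PrL minus CeA, AJ (1.96) and Ighm NAcc minus CeA, NOD (0.64), and gave Ighg2b NAcc minus CeA, PWK (-1.96) and Ighg2b PrL minus CeA, WSB (0.77). Leaving out the 6 libraries with mixed markers gave Ighg2b NAcc minus CeA, PWK (-4.12), Ighg2c NAcc minus CeA, B6 (-2.27), Ighg2c NAcc minus CeA, PWK (-1.60), Ighm NAcc minus CeA, S129 (0.53) and Ighm PrL minus NAcc, CAST (-0.47). Ighm NAcc minus CeA, PWK, not called, was -0.0141 without mouse 40.

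Sex differences, none of them called, turned direction in 14 cases, among them Ighg2b NAcc without mouse 48 (0.13), Ighg2c NAcc with runs summed (-0.12), limma-voom (-0.20) and without mouse 33 (-0.30), Igkc NAcc with DESeq2 (0.13), limma-voom (0.13) and without mouse 45 (0.25), Jchain male minus female, PrL with runs summed (-0.13), limma-voom (-0.0812), no tray term (-0.0188) and without mouse 5 (-0.11). Leaving out each B6 NAcc library in turn gave -0.30 to 0.29 for Ighg2c, -0.18 to 0.028 for Igkc and -0.0291 to 0.10 for Jchain male minus female, NAcc. Of 144 strain and region means, 11 moved by more than 1 SD with the other runs and 0 with TMM scaling. Counts of a few per library limit Ighg1, Igkc and Jchain.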
